A study of Mus musculus with 4 samples.

Results

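The dystrophin-glycoprotein complex was followed through myogenic differentiation as 8 genes: Dmd, Utrn, Dag1, Sgca, Sgcb, Sgcd, Sntb1 and Dtna. The rule that names them is a list of complex members and uses no measured value, though the list was chosen with earlier results of these data known. They are 8 of 13207 genes that could be named in the deposited transcripts. All 8 held at least 1 named intron. Polyadenylated RNA of C2C12 cells, a mouse skeletal myoblast line that fuses into myotubes when serum is withdrawn, was sequenced as paired ends. The growth library (-24 h) came from cells growing exponentially in DMEM with 20% fetal bovine serum, and the libraries at 60 h, 120 h and 168 h from cells moved to low serum at confluence. The labels give the strain as C57BL/6, name no genetic change and no added agent, and list 1 library per time point. There were no replicates, so no test was possible and each comparison is between libraries.

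The complex ties the actin cytoskeleton of a muscle fibre to laminin in the basement membrane. Dystrophin, or its autosomal relative utrophin, binds actin on the inside and the tail of beta-dystroglycan at the membrane. Alpha-dystroglycan, cut from the same precursor, carries the sugar chain that laminin grips. The sarcoglycans are small transmembrane proteins that form a subcomplex beside dystroglycan, and syntrophins and dystrobrevin sit on the cytoplasmic side, where they gather signalling proteins. Loss of dystrophin causes Duchenne muscular dystrophy, and loss of a muscle sarcoglycan causes a limb-girdle dystrophy.

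The libraries held 28513976, 48228887, 24488681 and 43845262 fragments in the order growth, 60 h, 120 h and 168 h, of which 86.9% to 89.7% lay in assembled transcripts. A level is given as FPKM, fragments per kilobase after division by the size of the library, and each ± is the distance to the deposited confidence limit, which covers counting error and the division of fragments among overlapping transcripts, not the difference between cultures. The main value is the FPKM through the introns, the median over the introns of a reference transcript of the FPKM of all assembled transcripts that hold each intron. The plain sum over a gene's transcripts is given beside it where they differ, since a gene assembled in pieces is counted more than once by the sum. A gene was called higher or lower ("rose" or "fell") when log2(FPKM + 1) changed by at least 2-fold, the higher library held at least 1 FPKM, and the limits did not overlap. Of the 5 myoblast and 6 myotube markers, all were assembled in every library. The summed FPKM of the myotube markers was 65.2 in growth, 9290 at 60 h, 13607 at 120 h and 11784 at 168 h. None of the 3 Schwann cell markers was assembled in any library. Of the fibroblast markers 2 of 4 were assembled in growth and 3 of 4 later, and their sum was 13.8, 154, 186 and 225 FPKM in the 4 libraries in turn, led by Col1a1, with Thy1 at 0 throughout. The smooth muscle markers, 3 of 4 assembled, summed to 2297, 1649, 830 and 416 FPKM, with Myh11 at 0. The neuron list, with 1 of 3 assembled, summed to 3.17 to 11.6 FPKM. Of the 3 macrophage markers Cd68 was assembled, at 0.308 FPKM in growth and 4.15 to 4.83 later, and Adgre1 and Ptprc were at 0. Of the 3 endothelial markers Cdh5 was assembled, at 0.329 FPKM at 60 h and 0.304 at 168 h, and Pecam1 and Kdr were at 0. In bulk RNA, fewer cells of a type and less RNA per cell cannot be told apart.

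Between growth and 60 h 5 of the members rose, and the same 5 were higher at 168 h than in growth. They were Dag1, Sgca, Sgcb, Sntb1 and Dtna, that is dystroglycan, 2 of the 3 sarcoglycans, a syntrophin and dystrobrevin. Utrn stayed within 1.19-fold of its growth level at 60 h and 168 h, Sgcd moved in a direction that depended on how it was measured, and Dmd was almost unassembled throughout. Of the 7 members tested at 60 h against growth, 5 rose and 0 fell, where 13.8% of 11270 named genes rose and 12.2% fell. The median log2 ratio of the 7 was 1.84, against -0.09 for all genes tested. At 168 h against growth, 5 of 7 rose and 0 fell, where 18.1% of 11258 genes rose and 20.7% fell, with medians of 1.92 and -0.11. The summed myotube markers and the summed fibroblast markers were also higher in the later libraries, as was Cd68, and their part in the result was not tested.

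Between the later time points no member was called. At 120 h against 60 h, 0 of 7 rose and 0 fell, where 3.93% of 11232 genes rose and 8.41% fell. At 168 h against 120 h, 0 of 7 rose and 0 fell, where 7.26% of 10998 genes rose and 5.02% fell. The median log2 ratios of the members were 0.03 and -0.03, against -0.06 and 0.02 for all genes.

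The calls were repeated with 2 other measures of a gene. By the sum over transcripts 4 members rose and 1 fell at 60 h, where 11.1% of genes rose and 15.5% fell: Sntb1 was no longer called and Sgcd fell. At 168 h against growth 4 members rose by the sum, again without Sntb1, where 15.6% of genes rose and 18.6% fell. By the sum 1 member, Sgcd, rose at 120 h against 60 h (12.6% of genes rose and 3.92% fell), and 0 were called at 168 h against 120 h (4.18% and 10.2%). The other measure, added after the data were seen, set all fragments of a gene over 1 fixed length, the union of its exons assembled in any library. It called the same 5 members higher at 60 h, where 11.2% of genes rose and 10.2% fell, and at 168 h, where 14.7% rose and 18.8% fell. It called 0 members at 120 h against 60 h (2.12% of genes rose and 4.53% fell) and 0 at 168 h against 120 h (3.52% and 2.64%).

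**Figure D1:**
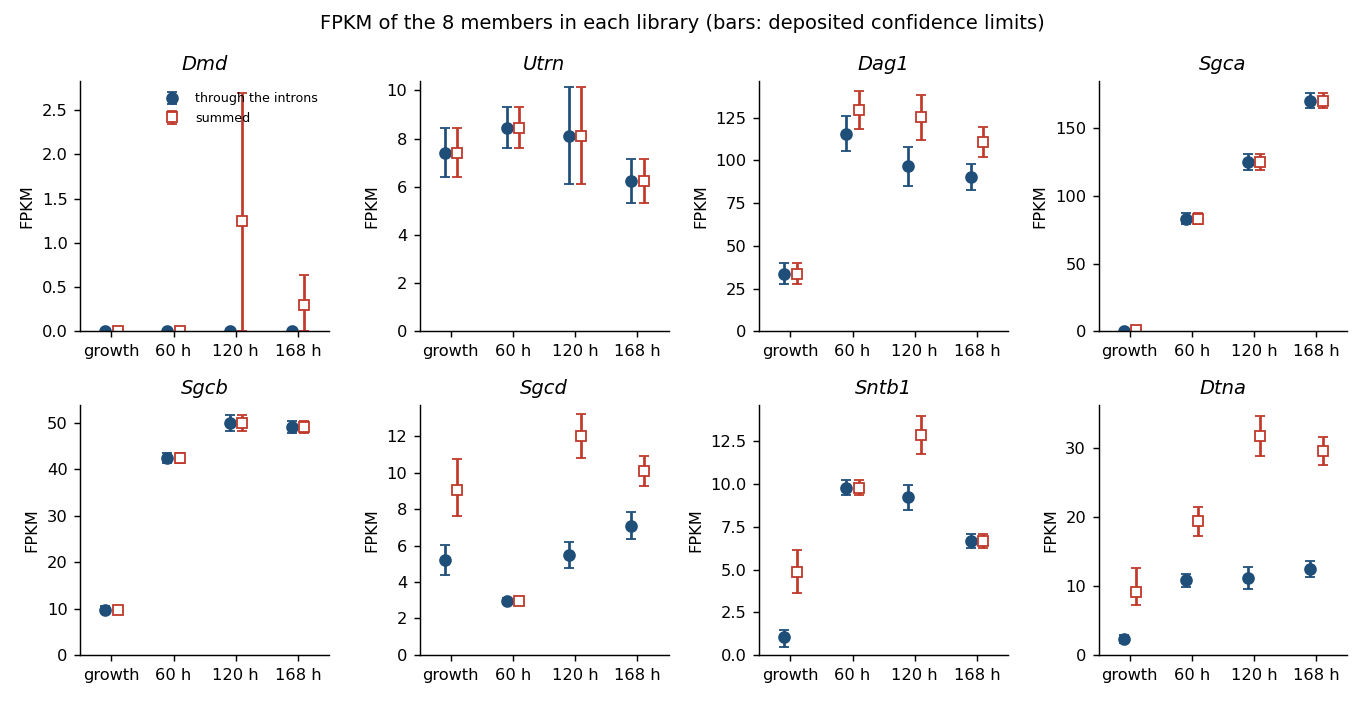
FPKM (vertical axes, linear, each from 0) of the 8 members in the 4 libraries (horizontal axes). Filled circles are the FPKM through the introns, open squares the sum over a gene's transcripts, and bars the deposited confidence limits of 1 library each. Dag1, Sgca, Sgcb, Sntb1 and Dtna sit low in growth, Utrn lies between 6.25 and 8.44 FPKM throughout, and the 2 measures of Sgcd, Sntb1 and Dtna part where these genes were assembled in pieces.

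Dmd encodes dystrophin, the actin-binding rod whose gene is among the longest in the genome. Of the 78 introns of its reference transcript, 2 were found in the 4 libraries together and 0 in all of them, so its FPKM through the introns was 0 in growth, at 60 h, at 120 h and at 168 h. No Dmd transcript was assembled in growth or at 60 h. At 120 h a 98-base transcript at chrX:82387144-82389432 held intron 69 at 1.25 ± 1.44 FPKM, which rested on 3 fragments. At 168 h a 233-base transcript at chrX:80626568-80735269 held intron 6 at 0.294 ± 0.339 FPKM, also on 3 fragments. Both lower limits were 0, so no library stood above another. Each of these transcripts had 2 exons, so its intron was named by length and place along the chromosome, not by a run of lengths. No source used here names the genome build of the files, and coordinates without a named build are printed as deposited.

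The short 3' forms of dystrophin start inside the gene, and an annotated form of the Dp71 type divides its introns into 62 before that start and 16 after it. The median was 0 FPKM in both parts in every library. Exons 71 and 78, which are skipped in some dystrophin forms, had no inclusion or skipping intron assembled, so no percent inclusion could be given. The interval from intron 6 to intron 69 measured 1652012 bases in the files and the same in the annotation. All other deposited transcripts inside it had a single exon: 3 in growth, 2 at 60 h, 2 at 120 h and 14 at 168 h. They held 57, 78, 18 and 55 fragments in all, of which 50, 76, 16 and 24 lay in 1 piece that recurred in every library (chrX:81308680-81309374 in growth). Fragments outside the assembled transcripts were not analysed here, so these counts set no upper limit on Dmd. For comparison, the longest deposited transcripts spanned 1050879 bases in growth and 1049530 to 1050797 bases later, and 7 of 15 named protein-coding genes annotated over more than 1000000 bases had a level over 0 in at least 1 library. Whether gene length bore on the Dmd result was not tested.

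Utrn encodes utrophin, which takes the place of dystrophin along the membrane of immature muscle cells and at the neuromuscular junction. Unlike Dmd, it was assembled across its whole length, with all 74 introns in all 4 libraries (chr10:12103589-12589069, minus strand). Its level was 7.42 ± 1.03 FPKM in growth, 8.44 ± 0.849 at 60 h, 8.09 ± 2.05 at 120 h and 6.25 ± 0.917 at 168 h, on 2181 to 4445 fragments. The limits of growth overlapped those of every later library, and the log2 ratio was 0.17 at 60 h and -0.21 at 168 h against growth. Those of 60 h and 168 h were apart. Over the union of its exons, with limits for counting error alone, growth was at 7.05 ± 0.295, 60 h at 8.09 ± 0.243 and 168 h at 5.94 ± 0.218 FPKM, all apart. The profile along the gene was flat past intron 1. Introns 1 to 51, before the start of an annotated short form, and introns 52 to 74, after it, had the same median in each library. A flat line follows in part from how the values were made, because FPKM belongs to a whole assembled chain and the same chains spanned the gene.

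The assembled Utrn chains differed at the 5' end. Both first introns lie before the coding sequence and join exon 2, and they differ in the first exon used. The shorter, of 6357 bases, carried 73.2% of the FPKM in growth (limits 63.5% to 82.8%), 75.7% at 60 h, 58.0% at 120 h (41.3% to 76.6%) and 73.1% at 168 h. The rest went to the 7019-base intron of the reference transcript. The limits of all 4 libraries overlapped, so no change of first exon was detectable. Both chains then ran through the same later introns, apart from intron 58 at 120 h, where a 3-base shift of the acceptor carried 10.4% of the FPKM with a lower limit of 0. These splice choices and the others described for Dag1, Sgca and Dtna were chosen for description after their values were seen.

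**Figure D2:**
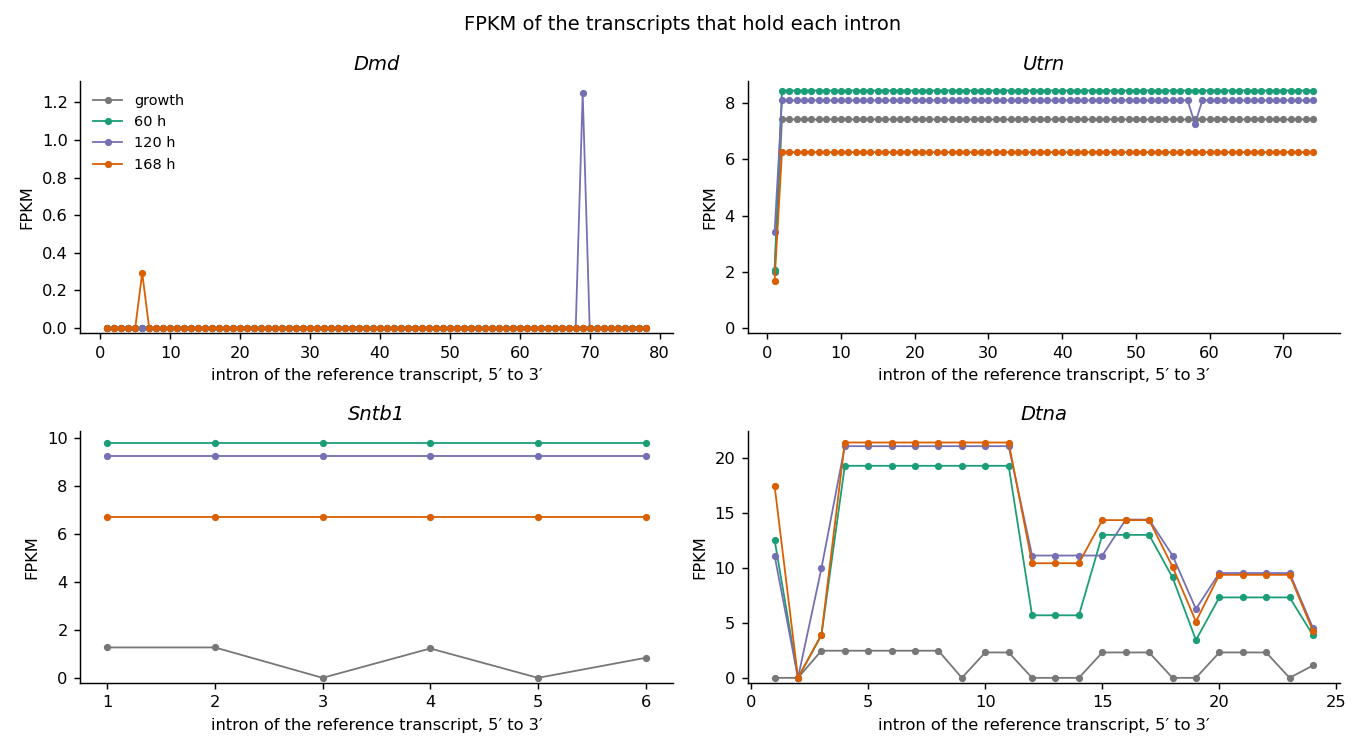
FPKM (vertical axis, linear) of the transcripts that hold each intron of the reference transcript (horizontal axis, numbered from the 5' end) of Dmd, Utrn, Sntb1 and Dtna, 1 line per library. Dmd shows 1 intron each at 120 h and 168 h, Utrn is level from intron 2 on, Sntb1 lacks introns 3 and 5 in growth only, and Dtna steps down where its chains end or skip exons.

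Dag1 encodes the precursor of alpha- and beta-dystroglycan, the link between laminin outside and dystrophin or utrophin inside. It was at 33.8 ± 5.98 FPKM in growth, 116 ± 10.2 at 60 h, 96.5 ± 11.5 at 120 h and 90.2 ± 7.77 at 168 h (chr9:108107189-108166187, minus strand). All 3 later libraries lay above growth with limits apart, 3.43-fold at 60 h and 2.67-fold at 168 h. Among them only 60 h and 168 h had limits apart by this measure. Summed over transcripts the level was 33.8 ± 5.98, 129.7 ± 11.2, 125.3 ± 13.3 and 110.7 ± 8.96 FPKM, and the limits of the later libraries overlapped. Over the union of its exons the later libraries were at 119 ± 1.30, 114 ± 1.79 and 101 ± 1.26 FPKM, all apart. With 5104 to 33461 fragments Dag1 held the most fragments of any member in each library.

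Dag1 was assembled from 3 alternative first exons, whose introns all lie before the coding sequence and share an acceptor. The reference intron of 10467 bases carried 56.7% of the FPKM in growth, 48.1% at 60 h, 52.3% at 120 h and 38.7% at 168 h. The 10622-base intron carried 18.4% (limits 8.79% to 29.3%) in growth, 35.0% (29.1% to 41.0%) at 60 h, 25.3% at 120 h and 29.4% at 168 h. The 10323-base intron carried 24.9%, 16.9%, 22.4% and 31.9%. Between growth and 60 h the limits overlapped for each of the 3 shares. Between 60 h and 168 h they were apart for the 10323-base intron alone. A second donor of exon 2, with an intron of 34598 in place of 34690 bases, was absent in growth and carried 10.7% at 60 h, 18.9% at 120 h and 18.5% at 168 h. At 120 h and 168 h this donor belonged to 3-exon chains that began in exon 2, and at 60 h to 4-exon chains. All of these choices lie before the coding sequence, which has 2679 bases in the annotated form with each of the 3 first exons.

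The sarcoglycans stabilise dystroglycan at the membrane and are made together before they reach it. Sgca encodes alpha-sarcoglycan, the member restricted to striated muscle, at chr11:94824100-94834762 (minus strand). Its FPKM through the introns was 0 in growth, 83.3 ± 4.14 at 60 h, 125 ± 5.97 at 120 h and 171 ± 5.60 at 168 h. In growth only introns 6, 7 and 8 and an alternative last intron were assembled, in a 729-base transcript of 18 fragments at 0.866 ± 0.408 FPKM. By the sum over transcripts it was 96.1-fold higher at 60 h and 197-fold higher at 168 h than in growth. Over the 1488 bases of the union of its exons, where growth stood at 0.424 ± 0.200 FPKM, these were 189-fold and 389-fold. Among the later libraries 120 h lay 1.51-fold above 60 h and 168 h lay 1.36-fold above 120 h, with limits apart at both steps, though neither step reached 2-fold on the log2(FPKM + 1) scale. At 168 h it had the highest level of the 8 members. At 120 h it stood above Dag1 through the introns, but over the union of exons the limits of the pair overlapped, at 115 ± 3.55 and 114 ± 1.79 FPKM.

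The last intron of Sgca was spliced to either of 2 acceptors after the coding sequence. The nearer acceptor, with an intron of 121 bases, carried 78.9% of the FPKM at 60 h (limits 75.5% to 82.3%), 83.5% at 120 h (80.5% to 86.5%) and 86.4% at 168 h (84.3% to 88.5%). The limits of 60 h and 168 h were apart. The farther acceptor, with an intron of 235 bases, carried the rest and was the form seen in the growth transcript, on 18 fragments. The coding sequence of the reference transcript holds 387 codons and ends before both acceptors.

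Sequences upstream of the start are shown for Sgca and Dag1, the members that were highest at 168 h and whose RefSeq start is also the outermost annotated start. Each runs 250 bases up to the start, 5' to 3', in GRCm38.p6, and comes from RefSeq. They are Sgca chr11:94976328-94976577 and Dag1 chr9:108263959-108264208, both on the minus strand. Capitals mark the E-box pattern CANNTG, the core that myogenic regulators of the MyoD family bind, which reads the same on both strands.
Sgca: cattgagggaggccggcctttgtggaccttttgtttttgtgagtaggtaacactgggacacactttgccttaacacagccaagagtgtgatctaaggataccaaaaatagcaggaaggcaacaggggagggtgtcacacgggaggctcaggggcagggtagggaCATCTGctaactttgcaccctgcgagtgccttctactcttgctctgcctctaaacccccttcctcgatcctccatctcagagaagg
Dag1: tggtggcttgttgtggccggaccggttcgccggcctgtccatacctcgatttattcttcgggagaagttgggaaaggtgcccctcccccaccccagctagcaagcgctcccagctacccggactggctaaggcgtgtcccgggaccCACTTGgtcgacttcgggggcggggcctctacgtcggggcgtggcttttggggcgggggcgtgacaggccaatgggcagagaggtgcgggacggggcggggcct
Each held 1 such match, CATCTG at position -86 in Sgca and CACTTG at position -104 in Dag1, counted back from the start. The pattern occurs in 66.2% of 32851 upstream windows of this length, so its presence sets neither gene apart. The form CAGCTG, found in 13% of windows, was in neither. RefSeq upstream windows were examined for 6 of the 8 members, and those of Sntb1 and Dtna were not.

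Sgcb encodes beta-sarcoglycan, the core of the subcomplex, which non-muscle cells also make. It was at 9.74 ± 0.714 FPKM in growth, 42.5 ± 1.13 at 60 h, 50.1 ± 1.75 at 120 h and 49.1 ± 1.28 at 168 h (chr5:74024946-74038957, minus strand). In every library it was a 6-exon transcript with no pieces, on 744 to 5927 fragments, so both measures were the same. The later libraries were 4.36-fold higher at 60 h and 5.04-fold higher at 168 h than growth, and the limits of 120 h and 168 h overlapped.

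Sgcd encodes delta-sarcoglycan, the closest partner of beta-sarcoglycan (chr11:46786163-47193006, minus strand). Its FPKM through the introns was 5.22 ± 0.825 in growth, 2.95 ± 0.178 at 60 h, 5.49 ± 0.695 at 120 h and 7.10 ± 0.736 at 168 h. By this measure 60 h was the lowest library and no comparison passed the size rule, with a log2 ratio of -0.65 at 60 h against growth. The sum over transcripts was 9.04 ± 1.71, 2.95 ± 0.178, 12.0 ± 1.20 and 10.1 ± 0.828 FPKM, and by the sum Sgcd fell at 60 h (log2 ratio -1.35) and rose at 120 h against 60 h (1.72).

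The assembled length of Sgcd differed between libraries more than its level did. The 8-exon chain was 1075 bases long in growth, 7717 at 60 h, 1853 at 120 h and 1195 at 168 h, because the long 3' end was joined to it at 60 h and left as single-exon pieces elsewhere. There were 5 such pieces in growth, 4 of them at the 3' end, 4 at 120 h and 2 at 168 h. The 3' pieces lay at 0.433 to 0.857 FPKM in growth, 0.652 to 2.43 at 120 h and 1.02 to 1.96 at 168 h, below the chain in each of those libraries. Counted per 1000000 fragments of the library and without regard to length, Sgcd had 10.2 in growth, 22.8 at 60 h, 20.6 at 120 h and 20.0 at 168 h. Over the 7723 bases of the union of its exons the level was 1.32 ± 0.155 FPKM in growth, 2.95 ± 0.178 at 60 h, 2.66 ± 0.237 at 120 h and 2.59 ± 0.175 at 168 h. On that scale the 3 later libraries lay above growth with limits apart, 2.23-fold at 60 h, and the log2 ratio of 0.77 on FPKM + 1 did not pass the size rule. The direction at 60 h thus turned on how the 3' end was counted, and no direction is given for Sgcd.

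Sntb1 encodes beta-1-syntrophin, an adaptor that binds dystrophin, utrophin and dystrobrevin and brings signalling proteins to the membrane. It was at 1.03 ± 0.407 FPKM in growth, 9.80 ± 0.454 at 60 h, 9.22 ± 0.707 at 120 h and 6.68 ± 0.396 at 168 h (chr15:55468871-55738466, minus strand). Through the introns the limits of 60 h and 120 h overlapped, and 168 h lay below both, 1.38-fold below 120 h. The sum, which counts an 818-base piece at 120 h separately, put 120 h at 12.9 ± 1.11 FPKM. That was above 60 h with limits apart. Over the union of exons 120 h was at 7.78 ± 0.567 FPKM, below 60 h with limits apart. In growth Sntb1 was in 5 pieces that left introns 3 and 5 unassembled, on 88 fragments, and at 60 h it was a single 7-exon transcript on 1865. The sum over the pieces put growth at 4.87 ± 1.27 FPKM, so by the sum 60 h was 2.01-fold above growth and did not pass the size rule (log2 ratio 0.88). Over the union of its exons it was 12.5-fold at 60 h, from 0.781 ± 0.166 to 9.78 ± 0.453 FPKM. Words of 50 bases shared with another gene made up 0.164% of Sntb1 and 0% of the other members.

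Dtna encodes alpha-dystrobrevin, a cytoplasmic relative of dystrophin that binds it through a coiled coil and carries syntrophins. It was at 2.31 ± 0.514 FPKM through the introns in growth, 10.9 ± 0.902 at 60 h, 11.1 ± 1.62 at 120 h and 12.4 ± 1.25 at 168 h (chr18:23573935-23818166, plus strand). The 3 later libraries overlapped one another and lay above growth, 4.69-fold at 60 h and 5.36-fold at 168 h. The sum over transcripts was 9.11 ± 3.43, 19.3 ± 2.07, 31.6 ± 2.92 and 29.5 ± 2.05 FPKM. It counted 5 pieces in growth, and 2 single-exon pieces beside the chains at 120 h and at 168 h, with 0 at 60 h. At 120 h against 60 h the log2 ratio was 0.68 by the sum and 0.12 by the sum of multi-exon transcripts. By the sum over all transcripts 60 h and 168 h were 2.12-fold and 3.23-fold above growth. Over the union of its exons they were 8.42-fold and 8.97-fold, from 0.860 ± 0.122 FPKM in growth. On the other strand the annotation places Gm47898 over part of Dtna, and without strand marking the fragments of both cannot be told apart.

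Dtna was the member with the most forms. The annotation holds a 12-exon form of 371 codons, an 18-exon form of 567 codons and longer ones of 682 and 746 codons. Chains with all 3 ends were assembled in each library after the switch. At 60 h the 12-exon end carried 6.29 ± 1.93 FPKM, the 18-exon end 5.70 ± 0.535 and the full-length ends 7.33 ± 0.512. At 120 h these were 6.69 ± 1.50, 4.87 ± 0.871 and 9.55 ± 1.62 FPKM, and at 168 h 7.07 ± 1.11, 4.98 ± 0.631 and 9.38 ± 1.20. The 12-exon end thus held 32.6%, 31.7% and 33.0% of the 3 in turn. In growth the gene was in pieces on 198 fragments, and of these ends the full-length one was assembled, at 1.13 ± 0.382 FPKM.

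Inside the longer forms, exons 13 and 14, 171 bases or 57 codons that keep the reading frame, were skipped by part of the chains. They were included in 43.7% of the FPKM at 60 h (limits 39.7% to 47.8%), 77.3% at 120 h (69.6% to 84.2%) and 72.7% at 168 h (66.6% to 78.4%). Inclusion at 60 h was lower than at both later times with limits apart. These shares come from the FPKM of whole assembled chains, and the assembler's part in the difference was not tested. At 60 h the whole included part was the 18-exon chain, at 5.70 ± 0.535 FPKM, and the full-length chains skipped these exons. At 120 h and 168 h full-length chains that included them were assembled as well, the highest at 5.01 ± 0.870 and 5.13 ± 0.688 FPKM. In growth the skipping intron alone was assembled, at 2.31 ± 0.514 FPKM. Exon 19, 21 bases or 7 codons, was included in 61.9%, 72.7% and 64.2% by the mean of its flanking introns. The upstream one also leads into the last exon of the 18-exon form, and by the downstream intron alone the values were 47.0%, 65.7% and 54.7%.

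The start of the Dtna chains varied as well, before the coding sequence. Some chains began in exon 3, an internal exon of the reference transcript, and intron 2 before it was assembled in no library. Whether transcription starts there was not tested. The 37458-base intron from exon 3 to exon 4 carried 65.4% of the FPKM there in growth (limits 27.6% to 100%), 20.1% at 60 h (16.5% to 24.3%), 47.2% at 120 h (39.2% to 55.1%) and 18.3% at 168 h (14.3% to 22.5%). The 120 h library stood apart from 60 h and 168 h, which overlapped. There the chain with the 12-exon form's end had 11 exons and began at the internal exon, while at 60 h and 168 h the chains with that end had 12 exons and began upstream. The pairing of starts with ends is the assembler's, and 120 h was the shallowest library. Their part in this difference was not tested.

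**Figure D3:**
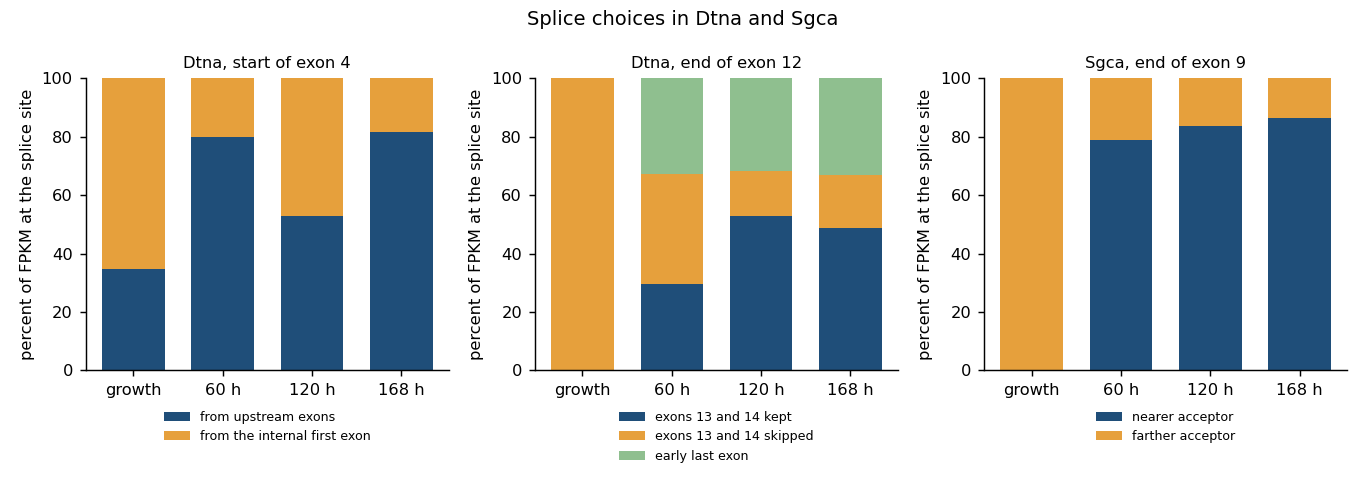
Stacked percent (vertical axis, 0 to 100) of the FPKM at 3 shared splice sites in the 4 libraries (horizontal axis): the start of exon 4 and the end of exon 12 of Dtna, and the end of exon 9 of Sgca. Exons 13 and 14 of Dtna take a larger part at 120 h and 168 h than at 60 h. The part labelled internal first exon, from chains that begin in exon 3, is larger at 120 h than at 60 h and 168 h. The growth bars rest on pieces of 57 and 5 fragments at exon 4 of Dtna, 81 at its exon 12 and 18 in Sgca.

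Compared per length, the order of the members changed after the switch. In growth the order through the introns was Dag1, Sgcb, Utrn, Sgcd, Dtna, Sntb1 and then Sgca and Dmd at 0. Each neighbouring pair above 0 had limits apart. At 60 h the order was Dag1, Sgca, Sgcb, Dtna, Sntb1, Utrn and Sgcd, and Dtna and Sntb1 did not differ beyond their limits. At 168 h it was Sgca, Dag1, Sgcb, Dtna, Sgcd, Sntb1 and Utrn, and the last 3 each overlapped the next. Utrn thus had the third highest level in growth and was among the lowest 3 above 0 at 168 h. The place of Sgcd depended on how its 3' end was counted, and over the union of exons it was below Utrn at 168 h, at 2.59 ± 0.175 against 5.94 ± 0.218 FPKM.

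The other genes of the complex and its laminin link, 22 listed and 19 named, gave 17 that could be tested at 60 h against growth. Of these 6 rose and 2 fell, where 13.8% of all named genes rose and 12.2% fell, and the median log2 ratio was 0.35. Cav3, the muscle caveolin, rose from 2.28 ± 0.805 to 203 ± 5.47 FPKM. Des, the muscle intermediate filament desmin, rose from 450 ± 5.29 to 1303 ± 12.6 FPKM. Lama2, the laminin chain that binds alpha-dystroglycan, rose from 3.03 ± 0.257 to 8.03 ± 0.296 FPKM through the introns. By the sum Lama2 was at 9.76 and 10.9 FPKM and was not called. Ank2, an ankyrin, was listed at 0 in growth and at 5.08 ± 1.16 FPKM at 60 h through the introns, but its sum was 10.1 and 11.5 FPKM. Sync rose as well. Dtnb, the beta-dystrobrevin gene, fell from 6.22 ± 0.984 to 2.61 ± 0.625 FPKM, and Ank3 fell as well. Over a fixed length 7 of 19 rose and 0 fell, where 11.2% of genes rose and 10.2% fell, so the call for both was lost there.

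Among the remaining partners, Sgce, whose epsilon-sarcoglycan stands in for alpha outside striated muscle, was at 12.7 ± 0.798 FPKM at 60 h, a log2 ratio of -0.03 against growth, and at 10.9 ± 1.04 at 120 h and 8.93 ± 0.704 at 168 h. No comparison of Sgce passed the size rule. Sntb2, the other beta-syntrophin, was at 7.14 ± 0.447, 4.44 ± 0.979, 4.22 ± 0.433 and 4.64 ± 0.875 FPKM and was not called. By the sum it was at 7.14, 6.64, 6.37 and 5.86 FPKM, also without a call. Sspn, the sarcospan gene, was at 4.97 ± 0.493, 10.1 ± 0.754, 13.8 ± 0.886 and 14.1 ± 0.670 FPKM and rose at 168 h against growth. Nos1, whose neuronal nitric oxide synthase is held at the membrane by syntrophin, was 0 through the introns in all 4 libraries and 0.995, 2.31, 6.17 and 4.16 FPKM by the sum. At 168 h against growth 6 of 17 genes of the list rose and 0 fell, with a median of 0.55, where 18.1% of all genes rose and 20.7% fell. By the sum 8 of 19 rose and 1 fell, where 15.6% and 18.6% of genes did.

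Of 17 listed genes that build the laminin-binding sugar on alpha-dystroglycan, 15 were named and 14 tested at 60 h against growth. Of these 1 rose and 2 fell, where 13.8% of all genes rose and 12.2% fell, and the median log2 ratio was -0.03 against -0.09 for all genes. Pomk, the mannose kinase of the pathway, was listed at 0 in growth and at 8.05 ± 0.480 FPKM at 60 h. Gmppb, which supplies GDP-mannose, fell from 15.4 ± 1.06 to 4.35 ± 0.373 FPKM and stood at 19.6 ± 1.74 at 168 h. By the sum it was at 34.5 FPKM in growth, 4.35 at 60 h and 19.6 at 168 h, so 168 h then lay below growth. At 168 h against growth 2 of 14 rose and 1 fell, where 18.1% of genes rose and 20.7% fell, with a median of 0.24.

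**Figure D4:**
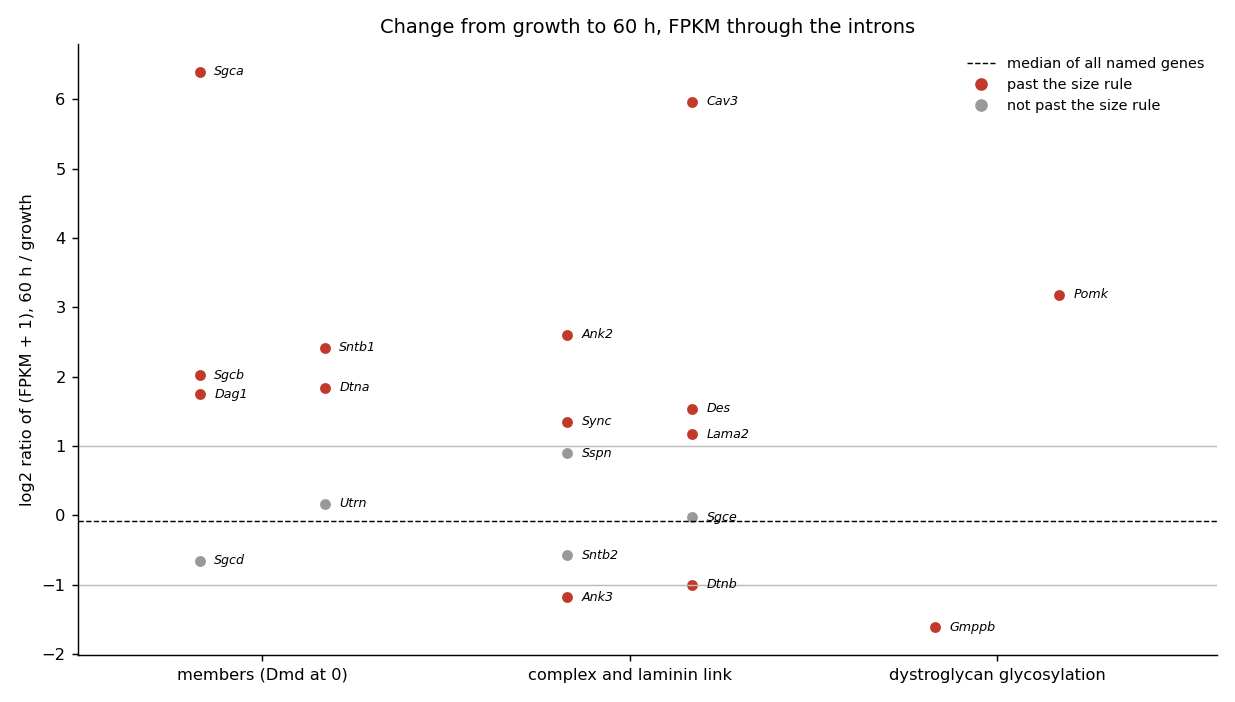
Log2 ratio of (FPKM + 1), 60 h over growth (vertical axis), for the members and for those genes of the 2 related lists that the text names (horizontal axis), with FPKM through the introns. Red points passed the size rule, grey points did not, grey lines mark 2-fold and the dashed line the median of all named genes (-0.09). Dmd, at 0 in both libraries, is not drawn, and the drawn members other than Utrn and Sgcd lie above 1.7. Most list genes, including most glycosylation genes, are not drawn.

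Over the 4 libraries, the genes whose centred log2(FPKM + 1) values lay nearest to each member were sought among 8327 genes with at least 5 FPKM. They were Vmp1 and Gm28048 for Utrn (distances 0.014 and 0.023), Slc9a9 and Aldh1l2 for Dag1 (0.049 and 0.081), and Ephb3 and Zbtb18 for Sgcb (0.072 and 0.081). For Sgcd they were Nelfa and Lypla2 (0.125 and 0.168), for Sntb1 Tead4 and Paqr3 (0.081 and 0.152), and for Dtna Plpp1 and Col5a1 (0.029 and 0.123). With 4 points such distances describe these libraries alone. They rest on the FPKM through the introns, and for Sgcd that pattern depended on the measure. Dmd and Sgca, at 0 in some library, were left out by the rule.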

How the data were processed

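Polyadenylated RNA of 4 libraries was measured. The authors deposited assembled transcripts with an RPKM value and its confidence limits per transcript, and the file headers name Cufflinks; TopHat 1.0.13 and Cufflinks 0.8.0 appear in the submitters' processing notes without a stated use. No source used here names the genome build. The files name no genes. Runs of intron, exon and intron lengths that are unique in GENCODE M21 named 122633 of 137519 introns. A further 5413 took a name from their length alone, where only 1 annotated intron of that length lay between nearby named introns on the chromosome. As a check on chance, a shift of 7 bases matched 1.11% of those 5413. Genes without introns were not analysed here. A single-exon transcript joined a gene that covered at least 50% of its bases with exons. In genes with 1 transcript the deposited limit is 2 times the square root of the fragment count away, which gave the library sizes, and 90.0% to 90.3% of low values came out as whole fragments within 0.01. Values are therefore called FPKM.

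Calls used a pseudocount of 1 FPKM. The 4 comparisons, the members, the gene lists, the markers and the alternatives were chosen with earlier results of these data known. Of the lists, the members, the direct partners and the 4 largest ratios per list were to be named; values of some of these genes are not reported here. Python 3 scripts with numpy were tested on simulated data. No strand-marking step is described in the labels' protocols.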

Additional observations from a re-analysis of the deposited data

How the results depend on the processing

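Every call rests on 1 library per time point. Over 320 pairs of a member and comparison with an alternative, 311 kept the direction of any call and their side of the size rule. Of the rest, 7 lost the call and 2 gained one, and no call reversed. A member without a call could change sign and still count as kept. Sgcd did so over the union of exons, from -0.65 to 0.77 at 60 h against growth and from 0.72 to -0.11 at 120 h against 60 h. Both gained calls were Sgcd by the sum (-1.35 at 60 h against growth and 1.72 at 120 h against 60 h). Sntb1 lost its calls by the sum (0.88 at 60 h and 0.39 at 168 h against growth) and, at 168 h, by the sum of multi-exon transcripts (0.83), which counts its growth pieces separately. With a 4-fold rule 3 members were called at 60 h and 3 at 168 h against growth. By the sum 1 member was called at 120 h against 60 h. As means over introns, Dmd was 0.0781 FPKM after the short-form start at 120 h and 0.00474 before it at 168 h. Inclusion of Dtna exon 19 was 70.2% at 60 h by the upstream intron, and 47.0% at 60 h and 54.7% at 168 h by the downstream one. Rescaling by median ratios moved the median log2 ratio of all genes from -0.09 to 0.05 at 60 h and from -0.11 to 0.06 at 168 h against growth, and the share of calls that were higher from 52.9% to 60.3% and from 46.7% to 54.1%; no member's call changed. Equal totals moved the median at 120 h against 60 h from -0.06 to -0.20. Introns assembled in all 4 libraries gave no Dmd value, and the alternatives for exons 71 and 78 gave none. No paired analysis was possible because each time point has 1 library.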
